A study of Mus musculus with 2 samples.

Results

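Genes of mitosis and cytokinesis were examined in fibroblasts sorted from mouse lung. The set comprised 59 named genes of the mitotic cyclins and kinases, kinetochore, spindle, condensin and cytokinesis, of which 58 were matched by symbol among 16040 genes. Counts of Cdca8 are not analysed here. Mice of the strain Col1a2-EGFP received saline or bleomycin, a DNA-damaging drug that injures the lung, into the trachea, and lungs were taken on day 14. Green fluorescent cells without lineage markers were sorted, so in both groups the cells were selected by a reporter under the type I collagen gene Col1a2, and the ages of the mice were not given in the sources used here. Each group was 1 library made from fibroblasts of 3 mice. The assay was SAGE, serial analysis of gene expression, in which a short tag near the 3′ end of each transcript is counted, so that counts do not grow with transcript length.

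The libraries held 1080798 tags (saline) and 1099840 tags (bleomycin), and 1 tag was worth 0.912 and 0.922 counts per 1000000 (CPM) after scaling. All 9 fibroblast markers examined had between 27 and 8890 counts in each library. With 1 library per group, no difference below has a replicate check, and each exact test compares the tags of these libraries, not the conditions. Intervals in brackets are exact 95% intervals for counting error. More dividing cells and more mitotic RNA per cell cannot be told apart in such bulk libraries.

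As background, entry into mitosis is driven by the kinase CDK1 with cyclins A and B. Chromosomes are compacted by condensin, attached to the spindle through kinetochores and held by the spindle checkpoint until the anaphase-promoting complex marks securin and cyclin B for destruction, after which cytokinesis divides the cell. Most of these genes are transcribed late in the cell cycle and are near silent in resting cells, and adult lung fibroblasts rarely divide unless the lung is injured.

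Because a SAGE count depends on the tag that represents a gene, the tag expected for each member was read first from the GENCODE M21 transcript that carries the RefSeq accession of its row. It was taken as the 26 bases starting at the last CATG, the site commonly used in SAGE, since the enzyme and tag length were not given in the sources used here. For 53 of 58 members this tag was found at a CATG of no other gene, and for Cks1b, Ndc80 and Stmn1 it was found in 1 other gene. The tags of Cenpf and Nuf2 were found in 62 and 79 other genes. Among 8963 tested genes with a tag, 49 (0.547%) had one found in at least 10 other genes. The tags of both shared members are printed below with those of 2 members whose tag was found in no other gene, with the CATG in capitals.
Cdk1: CATGtcccaagacagggacgactcaa
Cks2: CATGcgctgtattcttcacagcaaca
Cenpf: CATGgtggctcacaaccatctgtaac
Nuf2: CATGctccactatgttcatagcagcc
The Cenpf word belongs to the B2 family of short interspersed repeats, which are scattered through mouse transcripts. With a 21-base word, the Cenpf tag was found in 349 and the Nuf2 tag in 86 other genes, and no further member reached 10.

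**Figure D1:**
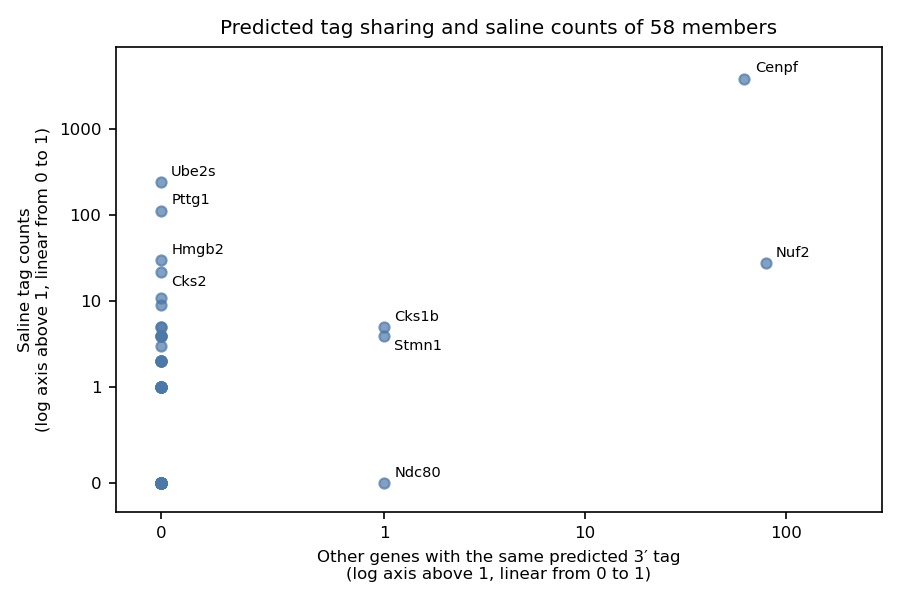
Saline tag counts of 58 members (vertical axis) against the number of other genes that hold the same predicted 26-base tag (horizontal axis); each point is 1 gene and both axes are logarithmic above 1. Cenpf, at 3850 counts and 62 other genes, and Nuf2, at 28 counts and 79 other genes, lie apart from the 53 genes at 0.

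Cenpf, a large coiled-coil protein of the kinetochore, had 3850 saline and 3874 bleomycin counts, a ratio of 1.02 (0.973 to 1.06). It ranked 30th among all genes and made up 88.3% of the saline and 78.8% of the bleomycin counts of the whole set. A further 8 genes had the same word as their own last tag, and their counts ranged from 0 to 71 in saline and 0 to 87 in bleomycin. Nuf2, a subunit of the NDC80 kinetochore complex, had 28 and 10 counts and was called lower, at 2.77-fold (1.31 to 6.39; adjusted p = 0.0221 by the exact binomial test). The part of tags from other genes in the Cenpf and Nuf2 counts was not tested.

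Mitotic genes were near the floor in the saline library and were detected throughout the bleomycin library. Of the 58 members, 53 had a higher CPM in bleomycin and 5 a lower one, whereas 54.3% of all 13877 genes with at least 1 count were higher in bleomycin. In the saline library 27 of the 58 were at 0 counts, against 0 in the bleomycin library. Of all 13877 genes with a count, 1602 (11.5%) were at 0 in saline alone and 959 in bleomycin alone. A count of 0 is likelier at low abundance, and 26 members had 1 to 9 counts in all. These shares were not matched for abundance. The median count was 1 in saline and 9 in bleomycin, and 7 members reached 10 counts in saline against 28 in bleomycin. With no tag seen, a gene could still have been present at up to 2.74 CPM in saline or 2.77 CPM in bleomycin.

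**Figure D2:**
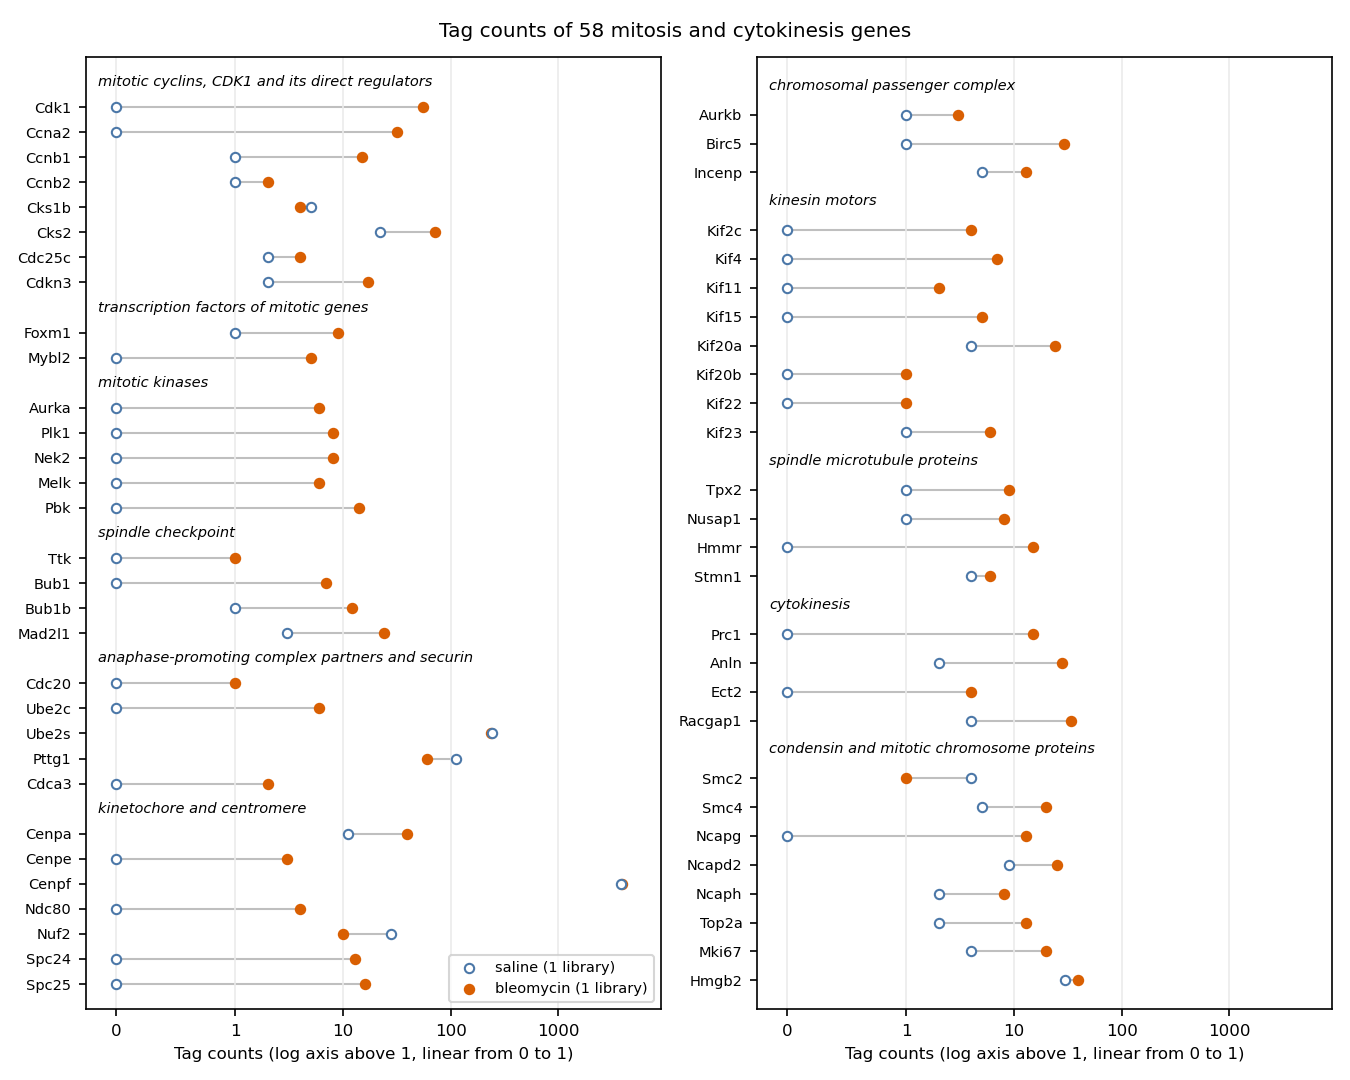
Tag counts of the 58 members in the saline (open circles) and bleomycin (filled circles) libraries, grouped by role; the axis is logarithmic above 1 and linear from 0 to 1. Circles for bleomycin lie to the right for 53 genes, and those of Cks1b, Ube2s, Pttg1, Nuf2 and Smc2 lie to the left.

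Summed over all members, counts were 4360 and 4917, a ratio of 1.14 (1.09 to 1.19), which mostly reflects Cenpf. Without Cenpf the sums were 510 and 1043, a ratio of 2.07 (1.86 to 2.30), and without both Cenpf and Nuf2 they were 482 and 1033, a ratio of 2.17 (1.94 to 2.42). A test was made for the 32 members with at least 10 counts over both libraries. A gene was called when its adjusted p was under 0.05 and its ratio at least 2. Higher calls were made for 24 of the 32 and a lower call for 1, while over all 9369 tested genes the share called was 8.08% higher and 8.52% lower. With an assumed coefficient of variation of 0.2 between samples, 15 of the 24 higher calls held, and those of Cdkn3, Foxm1, Bub1b, Cenpa, Tpx2, Smc4, Ncapd2, Top2a and Mki67 did not. Bonferroni adjustment ended 18 of them. Members pass the minimum more readily when bleomycin is high, so the 24 are a description and not a share of the whole set. The 26 members under the minimum, 15 saline and 109 bleomycin counts in all, had a higher CPM in bleomycin in 24 cases, against 62.4% of all genes with 1 to 9 counts.

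**Figure D3:**
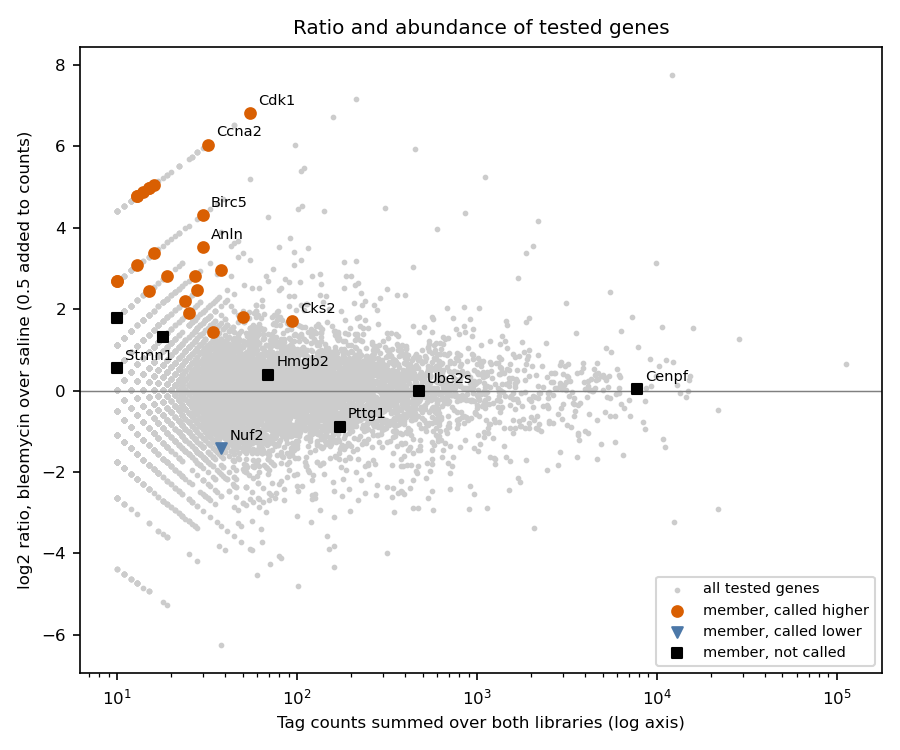
Log2 ratio of bleomycin over saline, with 0.5 added to each count (vertical axis), against tag counts summed over both libraries (horizontal, log axis) for 9369 tested genes in grey and the 32 tested members in orange, blue and black by call. The 24 members called higher have fewer than 100 counts in all, while Cenpf, Ube2s and Pttg1, at higher counts, are not called.

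Cdk1, Ccna2 and Ccnb1 had at most 1 saline count each and were called higher in bleomycin. Cdk1, the kinase that triggers mitosis, had 0 saline and 55 bleomycin counts and was at least 18.5-fold higher when set against 3 saline counts (exact limit 14.6; adjusted p = 5.89e-16 by the exact binomial test). Ccna2, the A-type cyclin of S phase and early mitosis, had 0 and 32 counts and was at least 10.8-fold higher (exact limit 8.28). Ccnb1, the main mitotic cyclin, had 1 and 15 counts, a ratio of 15.2 (2.33 to 639). The second B-type cyclin, Ccnb2, had only 1 and 2 counts and was not tested. The saline library held almost no tags of any cyclin of this group.

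The small CDK-binding proteins were measured at low counts. Cks2 had 22 and 72 counts, a ratio of 3.31 (2.03 to 5.60; adjusted p = 1.65e-06 by the exact binomial test). Its paralogue Cks1b had 5 and 4 counts, a ratio of 0.809 (0.161 to 3.76), and was not tested. The difference between the paralogues was not tested. Cdkn3, a phosphatase that acts on CDKs, rose from 2 to 17 counts, a ratio of 8.60 (2.04 to 76.7), and Cdc25c, the phosphatase that activates CDK1, had 2 and 4 counts. Over the 8 genes of this group, 33 saline and 201 bleomycin counts gave a ratio of 6.16 (4.25 to 9.19).

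Both transcription factors of the mitotic programme were low. Foxm1, which activates many G2 and mitotic genes, had 1 and 9 counts, a ratio of 9.10 (1.26 to 399) with an adjusted p of 0.0424 by the exact binomial test. That call was lost with total-count scaling, with DESeq2 size factors, with no minimum count, with Bonferroni adjustment, with an assumed coefficient of variation of 0.2 or 0.4, and when the smaller tail of the test was doubled. Mybl2, the B-MYB factor that works with the MuvB complex, had 0 and 5 counts.

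The 5 genes Aurka, Plk1, Nek2, Melk and Pbk, grouped as mitotic kinases apart from kinases described under other roles, were at 0 in saline. Together they had 42 bleomycin counts, at least 14.2-fold higher against 3 counts for the group (exact limit 11.0). Pbk, a kinase of dividing cells, had 14 bleomycin counts and was at least 4.72-fold higher (exact limit 3.35; adjusted p = 0.000452 by the exact binomial test). Plk1, a kinase of mitotic entry and spindle assembly, and Nek2, a centrosome kinase, had 8 each. Aurka, the spindle pole kinase, and Melk had 6 each, and these 4 were under the minimum for a test.

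Spindle checkpoint genes had 4 saline and 44 bleomycin counts, a ratio of 11.1 (4.05 to 42.6). Mad2l1, which holds back the anaphase-promoting complex, rose from 3 to 24 counts, a ratio of 8.09 (2.46 to 42.0). Bub1b, another part of the checkpoint inhibitor, rose from 1 to 12, a ratio of 12.1 (1.80 to 519). The kinases Bub1, with 0 and 7 counts, and Ttk, with 0 and 1, were not tested.

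Among partners of the anaphase-promoting complex, only Ube2s and Pttg1 had enough counts for a test. Whether the ratios differed within the group was not tested. The activator Cdc20 had 0 and 1 counts, the ubiquitin-conjugating enzyme Ube2c 0 and 6, and Cdca3 0 and 2. Ube2s, the enzyme that lengthens ubiquitin chains on its substrates, had 240 and 235 counts, a ratio of 0.990 (0.824 to 1.19). Pttg1, the separase inhibitor securin, had 113 and 60 counts, with a bleomycin to saline ratio of 0.537 (0.386 to 0.741; adjusted p = 0.000556 by the exact binomial test), short of the required 2-fold. Both Ube2s and Pttg1 thus had over 100 saline counts, where Cdc20, Ube2c and Cdca3 had none.

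At the kinetochore, the members other than Cenpf and Nuf2 had 11 and 75 counts in all, a ratio of 6.90 (3.64 to 14.4). Cenpa, the histone variant that marks centromeres, rose from 11 to 39, a ratio of 3.59 (1.80 to 7.76). The NDC80 complex joins Ndc80, Nuf2, Spc24 and Spc25 in equal number to bind microtubules. Spc24 had 0 and 13 counts and was at least 4.38-fold higher (exact limit 3.08), and Spc25 had 0 and 16 and was at least 5.39-fold higher (exact limit 3.90). Ndc80 had 0 and 4 counts. Nuf2 was thus the only subunit of the 4 with saline tags and the only one with fewer tags in bleomycin. Cenpe, a kinesin of the kinetochore, had 0 and 3.

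The chromosomal passenger complex corrects attachments and later acts in cytokinesis. Its 3 matched genes had 7 and 45 counts, a ratio of 6.50 (2.91 to 17.1), and Cdca8, also listed for the complex, was not analysed. Birc5, the survivin subunit, rose from 1 to 29 counts, a ratio of 29.3 (4.86 to 1198; adjusted p = 3.60e-07 by the exact binomial test). The scaffold Incenp had 5 and 13 counts, a ratio of 2.63 (0.880 to 9.42) that did not pass the test, and the kinase Aurkb had 1 and 3. Birc5 therefore carried most of the bleomycin tags of the matched genes.

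The 8 mitotic kinesins had 5 saline and 50 bleomycin counts, a ratio of 10.1 (4.06 to 32.5), and all 8 had more CPM in bleomycin. Kif20a, which brings the passenger complex to the spindle midzone, rose from 4 to 24 counts, a ratio of 6.07 (2.08 to 24.1). It was the only kinesin with enough counts for a test. Kif23, the motor of centralspindlin, had 1 and 6 counts. Kif2c, Kif4, Kif11, Kif15, Kif20b and Kif22 were at 0 in saline with 1 to 7 counts in bleomycin.

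Proteins of spindle microtubules had 6 and 38 counts, a ratio of 6.40 (2.69 to 18.5). Hmmr, a spindle and hyaluronan-binding protein, had 0 and 15 counts and was at least 5.06-fold higher (exact limit 3.63). Tpx2, the activator of Aurora A, had 1 and 9 counts, the same values as Foxm1, and its call was lost under the same settings. Nusap1, which bundles spindle microtubules, had 1 and 8 counts. Stmn1, a tubulin-binding protein also used outside mitosis, had 4 and 6, a ratio of 1.52 (0.360 to 7.31) that did not pass.

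Among cytokinesis genes, 6 saline and 81 bleomycin counts gave a ratio of 13.7 (6.01 to 38.3). Racgap1, the second part of centralspindlin, rose from 4 to 34 counts, a ratio of 8.60 (3.07 to 33.3; adjusted p = 3.54e-06 by the exact binomial test). Anln, the anillin scaffold of the contractile ring, rose from 2 to 28, a ratio of 14.2 (3.57 to 123). Prc1, which crosslinks midzone microtubules, had 0 and 15 counts, and Ect2, the exchange factor that activates RhoA at the cleavage site, had 0 and 4. All 4 genes thus had more tags in bleomycin. Prc1, Anln and Racgap1 were called higher, but they reached the minimum for a test through their bleomycin counts. Their calls are therefore a description and not a share of the group.

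Chromosome proteins had 56 and 139 counts, a ratio of 2.51 (1.83 to 3.49). Mki67, the Ki-67 coat protein of mitotic chromosomes, rose from 4 to 20 counts, a ratio of 5.06 (1.69 to 20.3), and Top2a, the topoisomerase that untangles sister DNA, from 2 to 13, a ratio of 6.57 (1.49 to 60.0). Of condensin I, Ncapg had 0 and 13 counts and was at least 4.38-fold higher (exact limit 3.08). Smc4 rose from 5 to 20 counts, a ratio of 4.05 (1.47 to 13.8), and Ncapd2 from 9 to 25, a ratio of 2.81 (1.27 to 6.84). Ncaph had 2 and 8 counts and did not pass. Smc2, which pairs with Smc4 in every condensin, had 4 and 1 counts, too few for a test. Hmgb2, a chromatin protein found widely outside mitosis, had 30 and 39, a ratio of 1.31 (0.796 to 2.19).

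**Figure D4:**
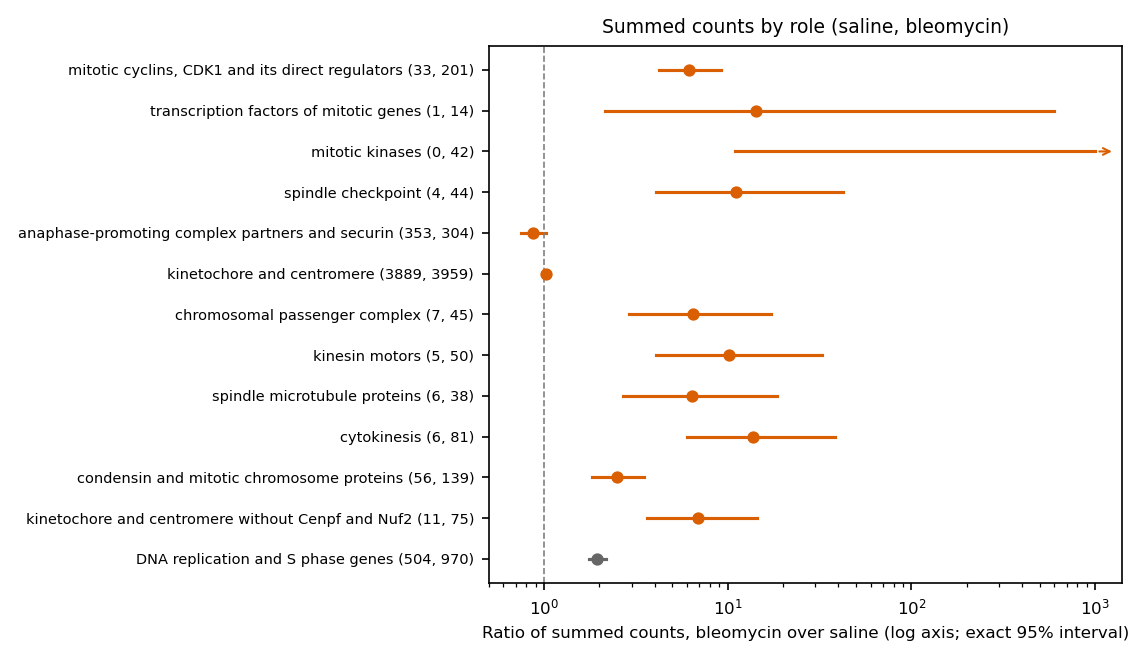
Ratio of summed counts, bleomycin over saline, for each role of the set and for DNA replication genes (log axis), with points for the ratio and lines for exact 95% intervals; the summed saline and bleomycin counts stand in brackets. The mitotic kinases, with 0 saline counts, have a lower limit of 11.0 and no upper limit, and the kinetochore group lies at 1.03 with Cenpf and Nuf2 and at 6.90 without them.

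Other genes of the pathway, on 8 lists of 137 genes, gave fewer calls. Of their 75 tested genes, 12 were called higher and 1 lower, to be read against the 8.08% and 8.52% called over all tested genes. A single call on a list of 11 or 13 tested genes is near that background. The 75 genes had a median log2 ratio of 0.17 against 0.02 over all tested genes and 2.68 over the tested members. Members pass the minimum more readily when bleomycin is high, so the 2.68 is partly set by that rule. Of the 32 tested members, 8 were at 0 in saline. The medians were not compared by a test. Among spindle, centrosome and kinesin genes 4 of 12 were higher and 1 lower. Knstrn, the kinastrin of kinetochores and spindles, had 0 and 25 counts and was at least 8.43-fold higher (exact limit 6.36), Psrc1 rose from 1 to 13, and Fam64a had 0 and 10. Kpna2, an importin that also acts in spindle assembly, rose from 22 to 71, a ratio of 3.26. Numa1, a spindle pole protein that is nuclear between divisions, was 2.23-fold lower (1.48 to 3.42) from 79 to 35 counts.

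Among other kinetochore and checkpoint genes, 2 of 15 were higher and 0 lower. Ska1, which couples kinetochores to microtubule ends, had 0 and 12 counts and was at least 4.05-fold higher (exact limit 2.81), and Cenpn, a centromere protein, rose from 6 to 21. The most abundant, Cenpx, had 55 and 41 counts, for a ratio of 0.754 (0.491 to 1.15). Subunits of the anaphase-promoting complex, listed with its coactivator Fzr1, had 1 of 13 higher and 0 lower. Anapc15 rose from 3 to 17, while Anapc5, the most abundant, had 391 and 369 counts, for a ratio of 0.954. The detected genes of this list, Fzr1 included, summed to 922 and 879 counts.

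Cohesin and separase genes had 1 of 11 higher, Stag1, from 22 to 48 counts, and 0 lower. The cohesin core subunit Smc1a had 101 and 78 counts, a ratio of 0.781 (0.574 to 1.06). Condensin II subunits had 0 calls among 1 tested gene, Ncaph2, with 113 and 107 counts. G2 regulators had 1 of 6 higher, Ensa, an inhibitor of the phosphatase PP2A, from 27 to 55. The most abundant of them, the related inhibitor Arpp19, had 188 and 221 counts. Other cytokinesis genes had 2 of 6 higher, the septin Sept9 from 60 to 172 counts and the nonmuscle myosin Myh9 from 11 to 26, and 0 lower. Chmp4b, a membrane scission protein, had 437 and 506 counts. Of the MuvB and retinoblastoma family, 1 of 11 was higher, Rbl1, the p107 protein, from 2 to 14 counts, and 0 were lower. Rbbp4, a histone chaperone and MuvB subunit, had 151 and 162.

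DNA replication and S phase genes, the stage before mitosis, had 12 of 27 tested genes called higher and 0 lower. Over all tested genes, 8.08% were called higher and 8.52% lower. The 27 had a median log2 ratio of 1.39. These genes too pass the minimum more readily when bleomycin is high, so the calls and the median are partly set by that rule. Mcm5, a subunit of the replicative helicase, had 1 and 38 counts, a ratio of 38.4 (6.49 to 1557), Rrm2, of ribonucleotide reductase, had 1 and 54, and Tk1, thymidine kinase, had 1 and 21. Called genes with smaller ratios included Dut, from 25 to 76, Rfc2, from 17 to 45, and Mcm7, from 10 to 31. Pcna, the sliding clamp, had 193 and 183 counts, a ratio of 0.959 (0.779 to 1.18). Whether these genes and the mitotic genes differ in their ratios was not tested.

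Of 9 tested G1 cyclins, CDKs and CDK inhibitors, 2 were higher and 1 lower, against 8.08% higher and 8.52% lower over all tested genes. A single call on so short a list is near that background. Ccnd1, cyclin D1, rose from 22 to 87 counts, with an interval of the ratio from 2.48 to 6.71, and Cdk2 from 4 to 23. The inhibitor Cdkn1c (p57) was 4.60-fold lower (3.25 to 6.64) from 186 to 40 counts. Cdkn1a, the p21 inhibitor and the most abundant of them, had 583 and 609 counts, a ratio of 1.06 (0.941 to 1.19).

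Markers of the fibroblasts themselves also differed between the libraries, in both directions. Of the 9, 3 were called higher, 2 lower and 4 neither, against 8.08% higher and 8.52% lower over all tested genes. Col1a2, whose reporter was used for the sort, rose from 1636 to 5613 counts, a ratio of 3.47 (3.28 to 3.67). Fn1, fibronectin, rose from 1018 to 8890, and Col1a1 from 2714 to 7925. The proteoglycan gene Dcn fell from 4861 to 1606, and Tcf21, a transcription factor of lung fibroblasts, from 338 to 93. The part of these changes in the mitotic counts was not tested. Markers of other cell types were counted in the same libraries. On the endothelial list, 11 of 12 markers had a count, all 11 with a lower CPM in bleomycin, and their sum was 537 in saline and 35 in bleomycin. Egfl7, with 142 and 9 counts, and Ptprb, with 98 and 3, were the most abundant of them. Alveolar epithelial markers summed to 183 and 23, led by Sftpc with 154 and 7 and Krt18 with 8 and 6. A lower CPM in bleomycin was seen for 7 of 8 detected alveolar markers, Epcam had 1 and 0 counts, and Cdh1 was at 0 in both. Airway markers summed to 595 and 172, of which Tppp3 had 535 and 153 and Scgb1a1 46 and 12, so the sum mostly reflects Tppp3. Of the 7 detected, 5 had a lower CPM in bleomycin and 2 a higher one, Foxj1 with 0 and 3 counts and Krt5 with 0 and 1. Mesothelial markers summed to 163 and 140, of which Upk1b had 154 and 131 and Lrrn4 2 and 5. Erythroid markers were Hba-a1 alone, with 29 and 7. The part of cells with any of these markers in the mitotic counts was not tested. Leukocyte markers were at or near 0, with 13 and 5 counts over 9 genes, of which Coro1a had 8 and 0, Ptprc (CD45) at 0 and 1, and Cd3e at 0 in both. Of the 7 detected, 2 had a lower CPM in bleomycin and 5 a higher one. Among those higher, Laptm5, Cd79b and Lcp1 had 1 count in both libraries. Macrophage markers had 11 and 14 counts over 12 genes, of which Ear2 had 3 and 3 and Lyz2 4 and 1, with Emr1, Marco and Itgax at 0 in both. Of the 8 detected, 7 had a higher CPM in bleomycin and 1, Lyz2, a lower one. Among those higher, Ear2, Csf1r and Ly6c2 had equal counts in both libraries. Chi3l3 and C1qb had 0 and 2 counts, and Mrc1 and C1qa 0 and 1. The part of leukocytes and macrophages in the mitotic counts was not tested.

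The promoters of the members were searched for words known from cell cycle genes. RefSeq promoters of GRCm38.p6, from 250 bases before to 50 after the start, matched 48 of the 59 genes, Cdca8 included. As background, the cell cycle homology region (CHR) is bound by the MuvB complex, which represses mitotic genes in resting cells and activates them with B-MYB and FOXM1. The CCAAT box is bound by NF-Y, and E2F factors act mainly on genes of DNA replication. The words were TTTGAA and TTCGAA for the CHR, CCAAT for the CCAAT box, and TTCCCGCC, TTTGGCGC, TTTCCCGC and TTTGGCGG for E2F, on both strands, and matches may overlap.

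A CHR word stood in the promoter of 36 of 48 members (75.0%), against 21.7% of all 27025 genes with a promoter and 22.0% of 41 DNA replication genes. The CCAAT box stood in 34 members (70.8%), against 41.1% of all genes and 58.5% of replication genes. Both occurred together in 30 members (62.5%), against 8.61% of all genes and 12.2% of replication genes. An E2F word stood in 4 members (8.33%), Melk, Kif15, Ncapg and Ncapd2, against 4.22% of all genes, 7.68% of tested genes and 48.8% of replication genes, so the share in members was near that of tested genes. Over the 6564 tested genes with a promoter, the CHR share was 15.6%, the CCAAT share 42.9% and the share with both 6.41%. These shares describe letters in a window, not binding. The CHR word was found for 13 of 17 members called higher, 19 of 24 under the minimum count and 3 of 5 tested without a call. Cenpf and Ube2s held it. None of the words was found for Pttg1 and Nuf2, nor for Birc5 and Mad2l1, which were called higher. Mybl2, Nusap1 and Ncaph also held none. Whether the words go with the calls was not tested.

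**Figure D5:**
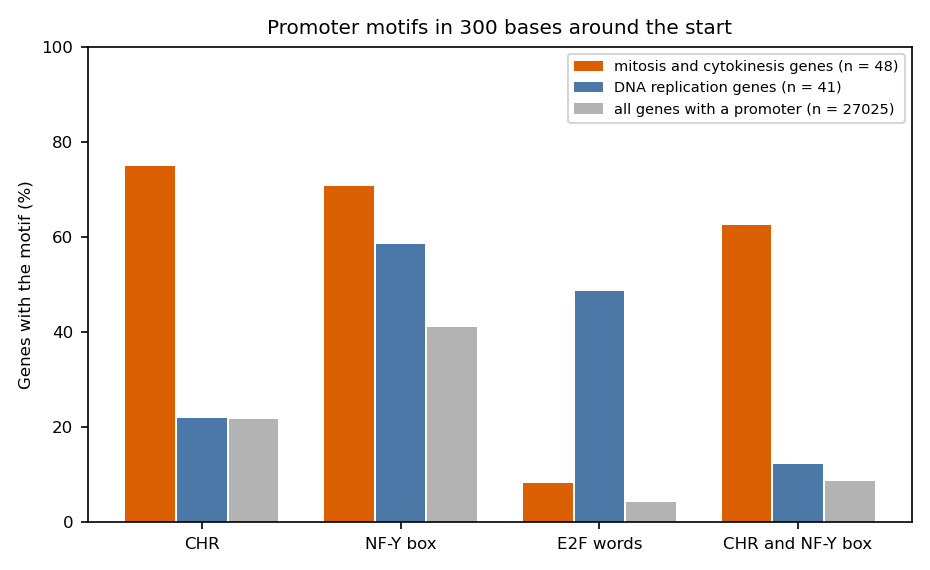
Share of genes whose 300-base RefSeq promoter holds a CHR word, a CCAAT (NF-Y) box, an E2F word, or both CHR and NF-Y box, for 48 mitosis and cytokinesis genes, 41 DNA replication genes and 27025 genes in all. The CHR bar is at 75.0% for mitotic genes and 22.0% for replication genes, and the E2F bars stand at 8.33% and 48.8%.

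The 150 bases before the start are printed for 3 members called higher that hold a CHR and a CCAAT box there, and for Pttg1, which holds none; they were chosen after their values were seen. Sequences are from GRCm38.p6 and read toward the gene, with matches to the words on either strand in capitals (ATTGG is the CCAAT box on the other strand).
Cdk1, chr10:69352913-69353062, minus strand: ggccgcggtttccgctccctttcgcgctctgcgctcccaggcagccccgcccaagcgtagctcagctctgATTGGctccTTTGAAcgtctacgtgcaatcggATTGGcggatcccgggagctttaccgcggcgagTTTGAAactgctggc
Prc1, chr7:80294326-80294475, plus strand: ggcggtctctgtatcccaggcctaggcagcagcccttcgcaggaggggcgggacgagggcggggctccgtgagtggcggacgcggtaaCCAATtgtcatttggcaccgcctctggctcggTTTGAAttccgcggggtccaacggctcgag
Mki67, chr7:135716380-135716529, minus strand: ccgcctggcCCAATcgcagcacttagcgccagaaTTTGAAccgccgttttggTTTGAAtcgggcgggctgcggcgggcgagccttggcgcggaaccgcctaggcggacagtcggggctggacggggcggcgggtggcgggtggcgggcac
Pttg1, chr11:43425982-43426131, minus strand: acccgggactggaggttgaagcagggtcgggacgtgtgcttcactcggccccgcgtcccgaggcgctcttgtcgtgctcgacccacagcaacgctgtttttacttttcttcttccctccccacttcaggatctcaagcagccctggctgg
In Cdk1, with 0 and 55 counts, CHR words began 71 and 15 bases before the start, and reversed CCAAT boxes 80 and 48 bases before it. In Prc1, with 0 and 15 counts, the CCAAT box began 62 and the CHR 30 bases before the later of its 2 listed starts. In Mki67, with 4 and 20 counts, the CCAAT box began 141 and the CHR words 116 and 98 bases before the start.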

How the data were processed

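Tag counts per gene were deposited by the authors as whole numbers for 1 saline and 1 bleomycin library. Libraries were built with a SOLiD SAGE kit from total RNA of sorted cells, per the labels' protocols. BWA 0.6.2 and mm9 are named in the submitters' processing notes, without a role. How tags were assigned to genes, whether strand was used and whether counts were scaled cannot be read from the labels (not given in the sources used here). Tests hold only if the deposited counts are raw, and overlapping, antisense or closely similar genes are uncertain. Without named molecular identifiers, the intervals and the floors describe counting error alone.

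The table held 16040 named genes, and 1 line with no gene was dropped. Symbols of some pathway genes were found through their RefSeq accession or title. Library sizes were scaled by the trimmed mean of M values (edgeR 4.0.16, R 4.3.3). The quasi-likelihood test of edgeR and the test of DESeq2 need replicates and could not be fitted. The 9369 genes with at least 10 counts were tested by a two-sided exact binomial test (scipy 1.17.1) with Benjamini-Hochberg adjustment over all of them. This test sums all outcomes no likelier than the one seen, and the scaled bleomycin library was slightly the smaller. A gene with all tags in bleomycin thus got a smaller p than one with as many tags all in saline. Doubling the smaller tail, run as an alternative, does not have this asymmetry at such genes. The call rule used a log2 ratio with 0.5 added to each count. A gene at 0 was given a bound from 3 counts in that library, and intervals are Clopper-Pearson. The script was tested on simulated data.

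Members, lists and tests were chosen with earlier results of these data known. Every member was reported whatever its value; from other pathway lists the called genes with the 3 largest and 3 smallest ratios and the most abundant gene were named, and from marker lists the 2 most abundant, with defining markers at or near 0 added after their values were seen; ties in the leukocyte list were not named. Alternatives were other scalings, count minimums, fold limits, adjustments and prior counts, and edgeR's exact test with an assumed coefficient of variation. Tags and promoters are described with the results. GENCODE M21 and RefSeq are on GRCm38, not mm9, and were used for names and sequences; printed promoter coordinates are those of GRCm38.p6.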

Additional observations from a re-analysis of the deposited data

How the results depend on the processing

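No paired analysis was possible because each group was 1 library, and none could be left out in turn. Of 24 members called higher, 22 remained with total counts, with DESeq2 size factors and with a doubled tail (added after seeing the data), and 23 with a ratio of at least 3. With no minimum count 26 of 58 were called, 22 of them shared, with Plk1, Nek2, Bub1 and Kif4 added. Over all 13877 genes under that setting, 745 (5.37%) were called higher. A minimum of 50 counts left 3 members higher and 0 lower among 7 tested, with a median log2 ratio of 0.39; 4 other pathway genes were higher, and 396 genes were higher and 484 lower over the whole table. Bonferroni adjustment left 6 higher and 0 lower members (those kept were Cdk1, Ccna2, Cks2, Birc5, Anln and Racgap1, and the other 18 higher calls ended), 3 higher and 0 lower pathway genes, and 288 and 333 genes over the table. An assumed coefficient of variation of 0.2 left 15 and 0 members (ending the higher calls of Cdkn3, Foxm1, Bub1b, Cenpa, Tpx2, Smc4, Ncapd2, Top2a and Mki67), 4 and 0 pathway genes, and 274 and 333 genes; one of 0.4 left 2 and 0 members (Cdk1 and Ccna2), 0 and 0 pathway genes, and 21 and 8 genes. With a ratio of at least 3, the lower calls of members and of pathway genes were 0, and 443 genes were higher and 445 lower. Total-count scaling gave 2 lower pathway genes. The median log2 ratio of 2.68 over tested members became 1.52 with a prior count of 5 and 2.29 with genes at 0 set to their bound. The ratio of summed counts moved from 1.14 to 2.07 without the most abundant member, Cenpf, and to 2.17 without Cenpf and Nuf2 (added after seeing the data). No called result changed direction under any setting run. Most members had fewer than 10 counts in saline, so the size of their ratios is poorly fixed at this depth.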

Other observations

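In the deposited table, the rows of Cdk1 and Col11a1 carry a question mark in an unlabelled column, and no other row has one. The labels do not say what it marks. Both genes were at 0 counts in saline, with 55 counts for Cdk1 and 26 for Col11a1 in bleomycin.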
